A study of Homo sapiens with 6 samples.

Results

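The genes described here act where a pyroptotic macrophage is perforated, ruptured or resealed: the gasdermins GSDMB, GSDMD and GSDME, the ninjurins NINJ1 and NINJ2, the ESCRT-III repair genes CHMP3, CHMP4B and VPS4A, the thioredoxin-binding gene TXNIP and the alarmin gene HMGB1. They were taken by gene symbol from the count table, which lists 61517 rows, and all 10 were found in it and passed the filter on low counts. RNA came from THP-1 cells, an established human monocytic leukaemia line, and all 6 libraries represent this 1 line. Per the series' design text the cells had been driven to a macrophage state and then given LPS and ATP to set off pyroptosis. In 3 libraries the cells were also treated with ruxolitinib, an inhibitor of the kinases JAK1 and JAK2, which the treatment field spells Lukotinib. The 3 control libraries carried the treatment value none. That every group shared the LPS and ATP stimulus is taken from the design text and not from this value. The sources used here do not give the dose, the timing or what was used for differentiation, and unstimulated cells were not analysed here. Each library has a batch number from 1 to 3, and each batch holds 1 ruxolitinib and 1 control library. The labels do not say whether replicates were grown as separate cultures, and p-values measure the spread between these samples only, which may be technical.

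Pyroptosis is a lytic death in which inflammasome sensors activate caspase-1, and caspase-1 frees the pore-forming end of gasdermin D. The pores release interleukin-1 beta, and NINJ1 then clusters in the plasma membrane and tears it, which lets large proteins such as HMGB1 out. Cells can oppose the pores by shedding damaged membrane through the ESCRT-III filament, which VPS4 disassembles. Much of this control lies in protein cleavage and assembly, which RNA levels do not measure.

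Total counts per library were 18796476 to 19253534 with ruxolitinib and 17757595 to 24533979 in control. Levels are in CPM, counts scaled to library size. The floor, the level that 3 counts make up and that a count of 0 cannot exclude, was 0.156 to 0.160 CPM with ruxolitinib and 0.122 to 0.169 CPM in control, and it covers counting error only. As a check of the drug labels, all 10 genes of an interferon-induced list were lower and passed the test, and the median of their log2 fold changes was -5.43. That list was chosen with earlier results of these data known, so it is not an independent check. Of 10 monocyte and macrophage markers, 9 fell and 1 rose, while 16.1% of all tested genes passed as lower and 13.6% as higher. The median log2 fold change of these markers was -0.59, and their summed level was 694 to 739 CPM with ruxolitinib and 1263 to 1291 CPM in control. The part of that shift in the values below was not tested. Defining markers of T cells (CD3D, CD3E and CD3G) and the erythroid marker HBB had 0 counts in all 6 libraries, as did the epithelial marker KRT19. The 7 T and NK cell markers summed to 5.90 to 8.05 CPM with ruxolitinib and 10.9 to 12.9 CPM in control. Of these, TRAC averaged 5.13 ± 0.697 CPM with ruxolitinib and 5.95 ± 0.393 CPM in control and did not pass (adjusted p = 0.291). NKG7, a granule gene, fell to 1.49 ± 0.393 CPM with ruxolitinib, against 5.68 ± 0.661 CPM in control (SD, n = 3 each, edgeR adjusted p = 2.04e-05). The 8 epithelial and stromal markers summed to 561 to 594 CPM with ruxolitinib and 823 to 891 CPM in control, nearly all of it PECAM1, which monocytes also express. B cell markers summed to at most 0.644 CPM with ruxolitinib and 0.996 CPM in control, and the 6 precursor markers to 7.29 to 9.18 CPM with ruxolitinib and 6.21 to 8.22 CPM in control. Mitochondrial genes took 3.75% to 6.42% of counts with ruxolitinib and 5.27% to 5.90% in control.

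Of the 10 genes, NINJ1 and HMGB1 rose with ruxolitinib, TXNIP and GSDME fell, and 6 did not pass the test. Calls were made with edgeR's quasi-likelihood test at a Benjamini-Hochberg adjusted p under 0.05 over 14051 tested genes, of which 29.7% passed, 13.6% higher and 16.1% lower. The 4 calls among 10 genes stand against that background of 29.7%. With the batch number as a block the calls among the 10 genes were 2, NINJ1 and TXNIP, and 2915 of all 14051 tested genes passed, against 4175 without it. The same 2 genes remained without any single library other than ruxolitinib replicate 3, without which HMGB1 passed as well. Leaving out 1 library gave 2941 to 4266 passing genes over all. Levels did not overlap between the groups for 7 of the 10 genes, against a background of 44.2% of tested genes. The median log2 fold change of the 10 genes was 0.06, and that of all tested genes was -0.01. In bulk libraries, fewer cells that express a gene and less of its RNA per cell cannot be told apart.

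**Figure D1:**
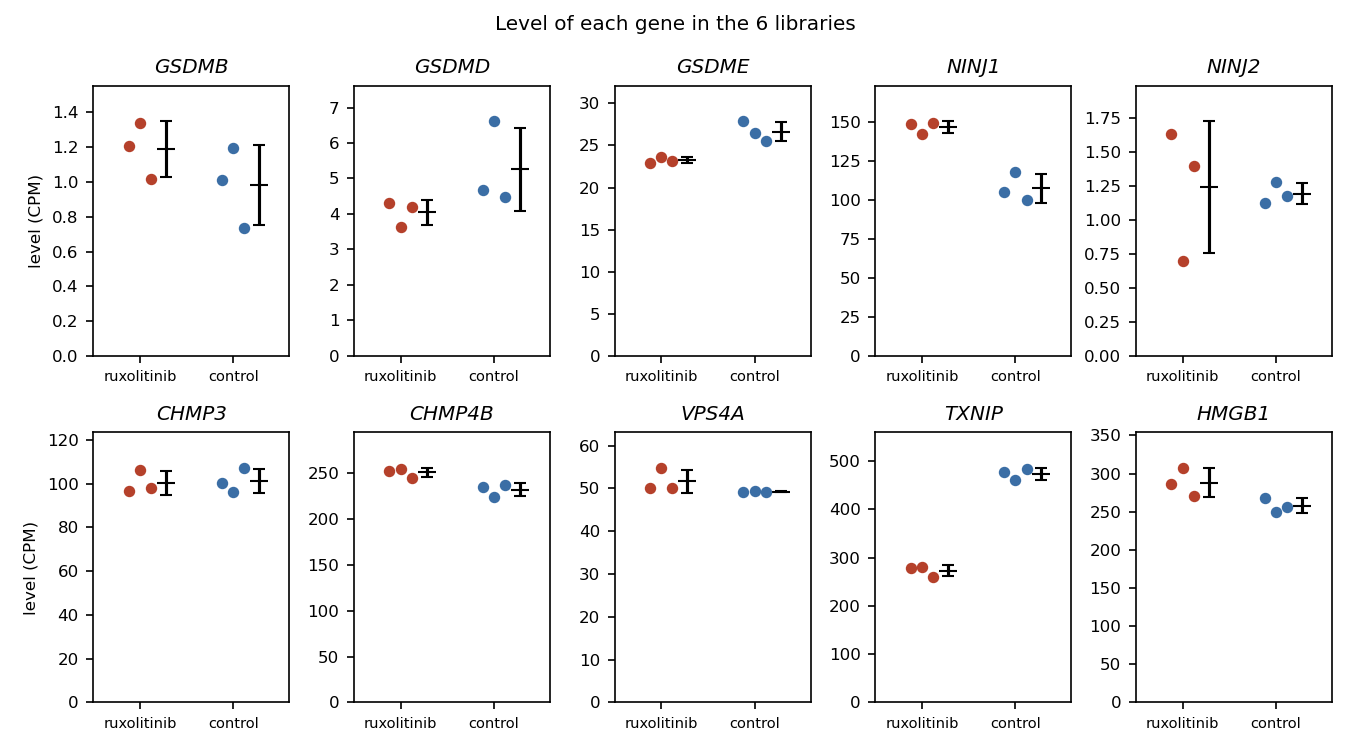
Level of each of the 10 genes in CPM (vertical axes from 0, each with its own scale) in the 3 ruxolitinib libraries (red, left) and the 3 control libraries (blue, right), drawn in the order of replicates 1 to 3, with mean ± SD as black bars. TXNIP and NINJ1 show a wide gap between the groups, TXNIP with 260.5 to 280.3 CPM under ruxolitinib and 460.0 to 484 CPM in control.

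Of GSDMB, GSDMD and GSDME, GSDME passed the test, with a small change, while the family relative PJVK fell further on far fewer reads. GSDME, a pore-forming family member, lies on chromosome 7 at 24698351 to 24758113. It stood at 22.9, 23.7 and 23.2 CPM with ruxolitinib, against 27.9, 26.5 and 25.6 CPM in control. Every ruxolitinib library lay below every control library. The log2 fold change was -0.19 ± 0.07 (SE, n = 3 per group, edgeR adjusted p = 0.0469). The call was lost in 14 of 17 alternative settings, among them the batch block (adjusted p = 0.125), DESeq2 (0.21) and each single library left out, while its direction held in all 17, with log2 fold changes between -0.23 and -0.15.

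GSDMD, the main pore former downstream of inflammasomes, lies on chromosome 8 at 143553207 to 143563062. It had 82, 68 and 78 counts with ruxolitinib, against 83, 166 and 103 counts in control. As levels these were 4.31, 3.64 and 4.19 CPM with ruxolitinib and 4.68, 6.61 and 4.47 CPM in control. The groups did not overlap, but control replicate 2 stood well above the other libraries. That library also had the most genes with a count, 24798. Control replicates 1 and 3 had 22675 and 21986, and the ruxolitinib libraries 21126 to 21412. Whether this difference of the whole library bears on GSDMD was not tested. The log2 fold change was -0.38 ± 0.18, with a 95% interval of -0.77 to 0.0028 (adjusted p = 0.128), and it was -0.18 without control replicate 2. Within batches the log2 ratios of ruxolitinib over control were -0.12, -0.86 and -0.10, so batch 2 carried most of the difference.

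GSDMB, which granzyme A cleaves, lies on chromosome 17 at 39904595 to 39919854 and was measured from few reads. It had 23, 25 and 19 counts with ruxolitinib and 18, 30 and 17 counts in control. These counts overlapped, and the log2 fold change of 0.27 ± 0.29 (95% interval -0.35 to 0.89, adjusted p = 0.517) left a wide range of sizes compatible with the data. The remaining family members were fixed as a list of 3 genes, of which 1 was tested. PJVK, the gasdermin relative known for its part in hearing, had 5, 3 and 8 counts with ruxolitinib and 15, 30 and 21 counts in control. It fell by 1.78 ± 0.40 on the log2 scale (adjusted p = 0.00552), and the call held in all 16 alternatives in which it was tested. Its level of 0.284 ± 0.136 CPM with ruxolitinib, against 0.984 ± 0.186 CPM in control (SD, n = 3 each), rested on few reads. GSDMA had 0 counts with ruxolitinib and 1 in control, and GSDMC had 2 in each group, so neither was detectable above the floor.

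NINJ1, the mediator of plasma membrane rupture, rose. It lies on chromosome 9 at 93121489 to 93134288 and stood at 148, 142 and 149 CPM with ruxolitinib, against 105, 118 and 99.7 CPM in control. The groups were well apart, and the highest control library lay below the lowest ruxolitinib library. The log2 fold change was 0.45 ± 0.06 (edgeR adjusted p = 1.59e-04), or 36.4% higher, which exceeded 78.3% of tested genes in size. The call held in all 17 alternatives, with log2 fold changes between 0.38 and 0.54. Within batches the log2 ratios were 0.50, 0.27 and 0.58, positive in all 3 batches.

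NINJ2, the paralogue first described as a nerve injury adhesion protein, was scarce beside it. It lies on chromosome 12 at 564296 to 663779 and had 31, 13 and 26 counts with ruxolitinib and 20, 32 and 27 counts in control. The ruxolitinib libraries spread around the control libraries, with replicate 2 lowest of all 6. The log2 fold change was 0.05 ± 0.31 (95% interval -0.63 to 0.74, adjusted p = 0.919), and its sign differed between settings. The antisense gene NINJ2-AS1 shares 554 bases of exon with NINJ2 on the other strand. It had 30, 57 and 46 counts with ruxolitinib and 40, 70 and 67 in control. Without a stated strand setting, reads from the shared bases cannot be assigned to either gene.

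The upstream sequences of NINJ1 and TXNIP, the genes whose calls held in every setting, are shown because they differ in the kind of motif they hold. They come from RefSeq on GRCh38.p14, minus strand, written 5′ to 3′, and stop before the transcript start annotated by GENCODE. NINJ1 covers chr9:93134289-93134501, and its capitals mark 4 matches to the GC box GGGCGG or its reverse CCGCCC, 1 of them on the reverse strand. TXNIP covers chr1:145996601-145996829, and its capitals mark 1 match to the carbohydrate response element, searched as the half-site CACGNG occurring again after a spacer of 5 bases, and 2 matches to the CCAAT box CCAAT or its reverse ATTGG.
NINJ1: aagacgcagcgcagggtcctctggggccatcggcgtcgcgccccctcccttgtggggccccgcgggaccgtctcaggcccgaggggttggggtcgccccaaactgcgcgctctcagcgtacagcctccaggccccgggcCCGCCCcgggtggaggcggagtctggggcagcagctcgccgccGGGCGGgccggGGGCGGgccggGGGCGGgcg
TXNIP: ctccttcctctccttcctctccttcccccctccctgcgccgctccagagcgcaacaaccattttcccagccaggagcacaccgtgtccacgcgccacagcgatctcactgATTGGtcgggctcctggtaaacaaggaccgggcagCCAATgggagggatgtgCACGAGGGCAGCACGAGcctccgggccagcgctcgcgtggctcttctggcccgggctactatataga
The carbohydrate response element is a pair of E-box-like sites bound by the glucose-sensing factors MondoA and ChREBP with their partner MLX. Counted from the RefSeq start, the TXNIP match runs from -88 to -72 and overlaps neither CCAAT match, which run from -140 to -136 and from -105 to -101. On both strands, the element occurred in 16 of 35116 upstream windows of 250 bases (0.0456%), the CCAAT box in 32.0% and the GC box in 42.6%. In the windows of the 7 genes of the set found in that table, the element occurred only for TXNIP. The E-box CACGTG, in 6.34% of all windows, matched only in NINJ2, the CCAAT box in HMGB1 and TXNIP, and the GC box in CHMP4B, GSDME, HMGB1, NINJ1 and VPS4A. The interferon-stimulated response element core, searched as GAAA occurring again after 2 bases, in 3.02% of all windows, and the gamma-activated site TTCNNNGAA, in 6.57%, had no match in the 11 windows of those 7 genes. A match describes letters in these windows and not binding.

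**Figure D2:**
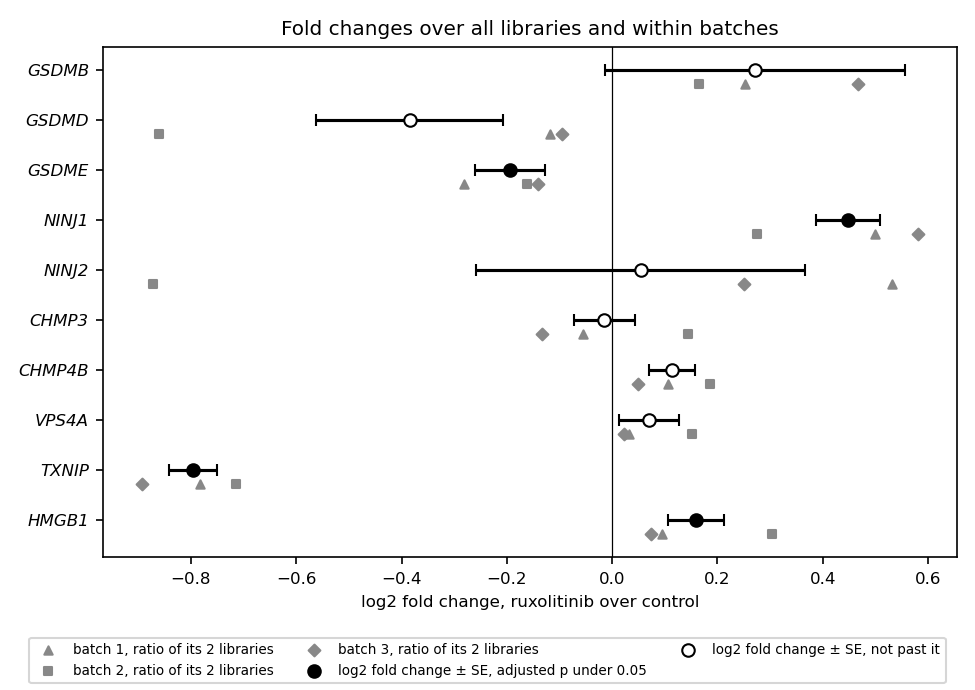
Log2 fold change of ruxolitinib over control for each of the 10 genes (circles with SE bars, filled where the adjusted p was under 0.05), with the log2 ratio of the ruxolitinib and the control library of each batch as grey marks. All 3 batch ratios lie left of 0 for TXNIP, GSDMD and GSDME and right of 0 for NINJ1, CHMP4B, VPS4A, HMGB1 and GSDMB.

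TXNIP showed the largest change of the 10 genes. TXNIP encodes an arrestin-like protein that binds thioredoxin, restrains glucose uptake and has been linked to NLRP3 activation. It lies on chromosome 1 at 145992435 to 145996600 and stood at 278, 280.3 and 260.5 CPM with ruxolitinib, against 479, 460.0 and 484 CPM in control. The spread inside each group was small beside the gap between them. TXNIP fell by 0.80 ± 0.05 on the log2 scale (edgeR adjusted p = 1.11e-07), a fold of 0.576, which exceeded 92.3% of tested genes in size. The call held in all 17 alternatives, with log2 fold changes between -0.84 and -0.75, and the within-batch log2 ratios were -0.78, -0.71 and -0.89.

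Of 11 tested thioredoxin and arrestin relatives of TXNIP, 4 rose, 1 fell and 6 did not pass (median log2 fold change 0.16). ARRDC4, the arrestin relative closest to TXNIP in its glucose response, also fell, to 33.9 ± 2.73 CPM with ruxolitinib against 48.4 ± 1.97 CPM in control (log2 fold change -0.52 ± 0.07). ARRDC3, another arrestin relative, rose to 424 ± 11.7 CPM with ruxolitinib against 332 ± 7.79 CPM in control (0.35 ± 0.04). TXN, the thioredoxin that TXNIP inhibits, rose to 763 ± 45.6 CPM with ruxolitinib against 591 ± 36.0 CPM in control (0.37 ± 0.06). SLC2A1, the glucose transporter GLUT1, rose by 0.26 ± 0.04 on the log2 scale. The call of SLC2A1 was lost without batch 1 (adjusted p = 0.0506). MLX, the shared partner of the glucose-sensing factors, averaged 112 ± 1.51 CPM with ruxolitinib and 114 ± 2.16 CPM in control and did not pass (-0.03 ± 0.04). MLXIP, which encodes MondoA, averaged 10.3 ± 1.40 CPM with ruxolitinib and 10.5 ± 1.57 CPM in control (-0.02 ± 0.14), and the sign of both differed between settings. Of the 16 genes whose upstream window holds the carbohydrate response element, 13 were tested, and 4 rose, 2 fell and 7 did not pass. TXNIP, which prompted this count, is 1 of the 2 that fell, and the background of calls among all tested genes was 29.7%.

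The ESCRT-III genes of the set changed little. CHMP4B, the filament-forming subunit, lies on chromosome 20 at 33811304 to 33854366 and stood at 253, 255 and 245 CPM with ruxolitinib, against 235, 224 and 237 CPM in control. Its groups did not overlap, yet the log2 fold change of 0.11 ± 0.04 (95% interval 0.02 to 0.21) did not pass (adjusted p = 0.0730). It passed only with upper-quartile scaling (adjusted p = 0.0257). CHMP3, a later-acting subunit, lies on chromosome 2 at 86503431 to 86563479 and stood at 96.4, 106 and 97.8 CPM with ruxolitinib and 100.2, 96.3 and 107 CPM in control. These overlapped throughout, and the log2 fold change of -0.01 ± 0.06 had a 95% interval of -0.14 to 0.11 (adjusted p = 0.877). The readthrough gene RNF103-CHMP3 shares 760 bases of exon with CHMP3 but held only 2, 0 and 9 counts with ruxolitinib and 0 in every control library.

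VPS4A, the ATPase that takes the filament apart, lies on chromosome 16 at 69311356 to 69326939. It stood at 50.1, 54.8 and 49.99 CPM with ruxolitinib, against 49.1, 49.3 and 49.2 CPM in control. The control libraries were almost identical and lay just below the ruxolitinib libraries. The log2 fold change was 0.07 ± 0.06 (95% interval -0.05 to 0.19, adjusted p = 0.392). VPS4A shares 1191 bases of exon with an unnamed gene on the same strand and 1245 bases with COG8 on the other strand, so its level is uncertain. The unnamed gene held 770, 707 and 770 counts with ruxolitinib and 639, 1022 and 913 in control, close to the 955, 1023 and 931 counts with ruxolitinib and 871, 1238 and 1133 in control of VPS4A itself.

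Of 22 tested genes of the wider ESCRT machinery, 2 rose, 3 fell and 17 did not pass, against a background of 29.7% passing. Their median log2 fold change was 0.05. With the batch as a block 2 of them passed, as did 2 without control replicate 1, 3 without control replicate 3, 1 without batch 1 and 8 without batch 2. CHMP5, a late ESCRT-III subunit that binds the VPS4 cofactor, had by far the largest fall among them. It stood at 194, 213 and 182 CPM with ruxolitinib, against 333, 311 and 332 CPM in control, and fell by 0.73 ± 0.06 on the log2 scale (adjusted p = 2.27e-06). CHMP4A, a paralogue of CHMP4B, fell by 0.29 ± 0.07 and the ESCRT-II gene VPS36 by 0.20 ± 0.05. CHMP7, which seeds ESCRT-III at the nuclear envelope, rose by 0.21 ± 0.05. The calls of VPS36 and CHMP7 were lost with the block (adjusted p = 0.0550 and 0.0502), that of VPS36 also without control replicate 1 or 3 (0.0518 and 0.0548), and that of CHMP4A without control replicate 1 (0.0566). Without batch 1 the calls of VPS36, CHMP7 and CHMP4A were lost (0.105, 0.180 and 0.165), and without batch 3 that of VPS36 (0.0778). The second gene that rose was IST1 (0.13 ± 0.04, adjusted p = 0.0373), whose call was lost in 13 of 17 alternatives, among them the block (0.145), DESeq2 (0.0577) and each single library left out other than ruxolitinib replicate 3. Apart from CHMP5, each gene of this list that passed had a log2 fold change below 0.3 in size.

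Among the 14 tested annexins and other repair genes 7 fell and 2 rose, while 5 did not pass. Over all tested genes 16.1% passed as lower and 13.6% as higher. The list's median log2 fold change was -0.21, against -0.01 over all tested genes. Without control replicate 1 the list's count that passed was 5, and without batch 1 it was 4. ANXA1, an annexin that binds injured membrane, stood at 66.2, 68.3 and 60.5 CPM with ruxolitinib, against 101.5, 93.8 and 101.6 CPM in control. It fell by 0.61 ± 0.06 on the log2 scale (adjusted p = 1.08e-05). MYOF, a dysferlin relative, fell by 0.70 ± 0.09, the calpain gene CAPN2 by 0.42 ± 0.05 and ANXA11 by 0.35 ± 0.05. The most abundant gene of the list, ANXA5, rose to 2247 ± 95.6 CPM with ruxolitinib against 1908 ± 69.6 CPM in control (log2 fold change 0.24 ± 0.05), and ANXA6 also rose (0.16 ± 0.05). Both rises were lost without batch 1 (adjusted p = 0.0760 for ANXA5 and 0.246 for ANXA6). The call of ANXA6 was lost as well with the block (0.0868), and without ruxolitinib replicate 1 or 2 (0.0879 and 0.0516) or control replicate 1 or 3 (0.0741 and 0.0602). DYSF, the dysferlin gene of muscle repair, was too low to test, with at most 13 counts in a library.

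HMGB1, a chromatin protein that acts as an alarm signal outside the cell, lies on chromosome 13 at 30456704 to 30617597. It stood at 286, 308 and 270.5 CPM with ruxolitinib, against 268, 249 and 257 CPM in control. Ruxolitinib replicate 3 lay just above control replicate 1, so the groups barely separated. HMGB1 rose by 0.16 ± 0.05 on the log2 scale (edgeR adjusted p = 0.0431). The call was lost in 11 of 17 alternatives, among them the block (adjusted p = 0.125), library totals alone (0.0780) and limma-voom (0.0523), and without any single library other than ruxolitinib replicate 3, and all 17 kept its direction. The within-batch log2 ratios were 0.09, 0.30 and 0.07. HMGB1 has many processed copies, and 14 of 48 rows named for them held counts. Together these rows held 866, 803 and 738 counts with ruxolitinib and 656, 927 and 855 in control, between 13.98% and 15.9% of the HMGB1 count with ruxolitinib and between 13.8% and 14.8% in control. The sources used here do not say how reads shared by HMGB1 and its copies were counted.

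Of 7 tested HMGB relatives and HMGB1 receptors, 2 rose, 2 fell and 3 did not pass, against a background of 29.7% passing. Their median log2 fold change was 0.13. The paralogue HMGB2 rose to 50.8 ± 1.33 CPM with ruxolitinib against 39.6 ± 0.289 CPM in control (log2 fold change 0.36 ± 0.05). HAVCR2, the TIM-3 receptor that binds HMGB1, fell to 10.2 ± 0.381 CPM with ruxolitinib against 30.0 ± 1.38 CPM in control (-1.55 ± 0.08, adjusted p = 2.91e-08). TLR2 fell by 0.19 ± 0.04, a call lost with the block (adjusted p = 0.0522), without control replicate 3 (0.0610) and without batch 1 (0.145). CXCR4, a receptor for HMGB1 bound to CXCL12, rose by 0.31 ± 0.05. CXCL12 itself was too low to test, with at most 8 counts in a library.

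**Figure D3:**
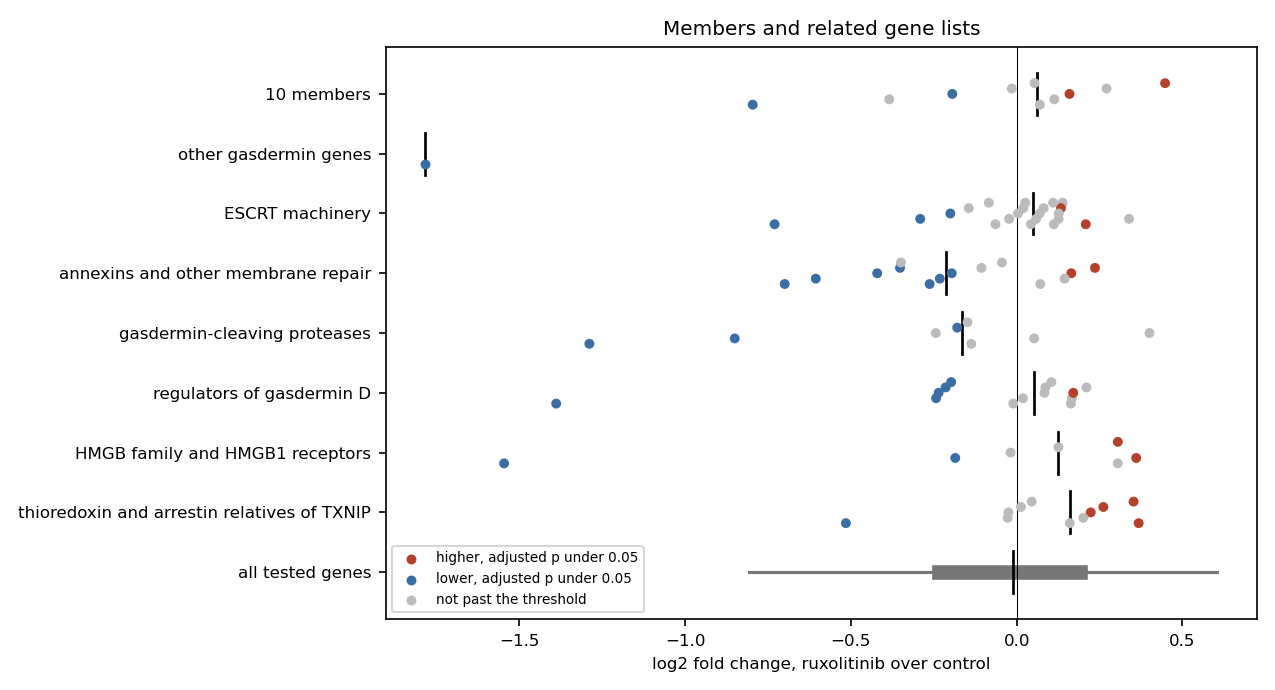
Log2 fold change of ruxolitinib over control for the 10 genes, for every tested gene of 7 related lists and for all tested genes, with red and blue points for higher and lower calls, grey points for genes that did not pass and a black tick at each median. In the bottom row the thick bar spans the 25th to 75th percentile and the thin bar the 5th to 95th, from -0.81 to 0.61.

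Of the 8 tested genes for proteases that cleave gasdermins, 3 fell, none rose and 5 did not pass, against a background of 29.7% passing. Their median log2 fold change was -0.16. By DESeq2 only 1 passed, as it did without ruxolitinib replicate 1 or without batch 1 or 3. CASP1, the activator of gasdermin D, was the clearest of them (log2 fold change -1.29 ± 0.05). GZMB, a granzyme gene, had 20 to 29 counts with ruxolitinib and 37 to 65 in control. It fell by 0.85 ± 0.23 on the log2 scale, and its call was lost by DESeq2 (adjusted p = 0.0649), without ruxolitinib replicate 1 (0.0786) and without control replicate 3 (0.0731). Without batch 1 or batch 3 the call of GZMB was lost as well (0.0920 and 0.0935). CASP8 did not pass (-0.24 ± 0.09, adjusted p = 0.0525), but passed in 4 of 17 alternatives, 1 of them without control replicate 3 (0.0471). GZMA, the granzyme that cleaves gasdermin B, had 0 counts in all 6 libraries.

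Of 14 tested regulators of gasdermin D, 5 fell, 1 rose and 8 did not pass, against a background of 29.7% passing. Their median log2 fold change was 0.05. With the batch as a block 2 of them passed, and by DESeq2 3, while 2 passed without ruxolitinib replicate 1 or control replicate 3 and 1 without batch 1 or 3. The ubiquitin ligase gene TRIM21 stood at 30.5, 29.5 and 27.5 CPM with ruxolitinib, against 79.2, 71.6 and 78.5 CPM in control, and fell by 1.39 ± 0.06 (adjusted p = 1.24e-08). IRF2, a transcription factor known to drive GSDMD, averaged 91.4 ± 1.69 CPM with ruxolitinib and 108 ± 5.83 CPM in control (-0.24 ± 0.05, adjusted p = 0.00494). Its call was lost without control replicate 3 (0.0557), without batch 1 (0.103) and without batch 3 (0.0697). The Ragulator genes LAMTOR1 and LAMTOR2 fell by 0.20 ± 0.06 and 0.24 ± 0.07, calls lost with the block (adjusted p = 0.0688 and 0.0630) and without either ruxolitinib replicate 1 or control replicate 1 (0.0539 and 0.124 for LAMTOR1, 0.117 and 0.0634 for LAMTOR2). The call of LAMTOR1 was also lost without ruxolitinib replicate 2 (0.0535) and with upper-quartile scaling (0.0525). That of LAMTOR2 was lost without ruxolitinib replicate 3 (0.0572) or control replicate 3 (0.0856). LAMTOR1 and LAMTOR2 also lost their calls by DESeq2 (0.0871 and 0.0952), without batch 1 (0.190 and 0.215) and without batch 3 (0.0559 and 0.126). The other Ragulator genes of the list had positive values. LAMTOR5 rose by 0.17 ± 0.06 (edgeR adjusted p = 0.0368), while LAMTOR3 and LAMTOR4 (log2 fold changes 0.08 and 0.10) did not pass. These were followed in the main setting only. The palmitoyltransferase genes ZDHHC5, ZDHHC7 and ZDHHC9 had log2 fold changes of -0.01, 0.16 and 0.21 and did not pass. ZDHHC7 and ZDHHC9 each passed in 2 of 17 alternatives, ZDHHC9 without ruxolitinib replicate 2 (adjusted p = 0.0219), and the sign for ZDHHC5 differed between settings.

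Per exon length the 10 genes spanned a wide range, in the same order in both groups. CHMP4B was highest, at 152 ± 3.09 CPM per kb with ruxolitinib and 141 ± 4.26 CPM per kb in control. TXNIP came next, with 75.3 ± 3.00 CPM per kb with ruxolitinib and 131 ± 3.42 CPM per kb in control, followed by NINJ1 with 55.3 ± 1.42 CPM per kb with ruxolitinib and 40.6 ± 3.47 CPM per kb in control. HMGB1, CHMP3 and VPS4A followed, at 37.3, 14.3 and 9.11 CPM per kb with ruxolitinib and 33.4, 14.4 and 8.68 CPM per kb in control. GSDME had 2.63 ± 0.0427 CPM per kb with ruxolitinib and 3.01 ± 0.131 CPM per kb in control. GSDMD had 0.791 ± 0.0690 CPM per kb with ruxolitinib and 1.03 ± 0.231 CPM per kb in control, and NINJ2 and GSDMB lay below it at 0.606 and 0.201 CPM per kb with ruxolitinib and 0.582 and 0.166 CPM per kb in control. GSDME was thus above GSDMD in every library, and all gasdermins lay below the repair genes. Neighbours in the order overlapped only for GSDMD and NINJ2 with ruxolitinib, where 1 library of NINJ2 was at 0.795 and 1 of GSDMD at 0.712 CPM per kb. Lengths are the union of all exons annotated in GENCODE 29, so a gene with many rarely used exons appears lower.

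**Figure D4:**
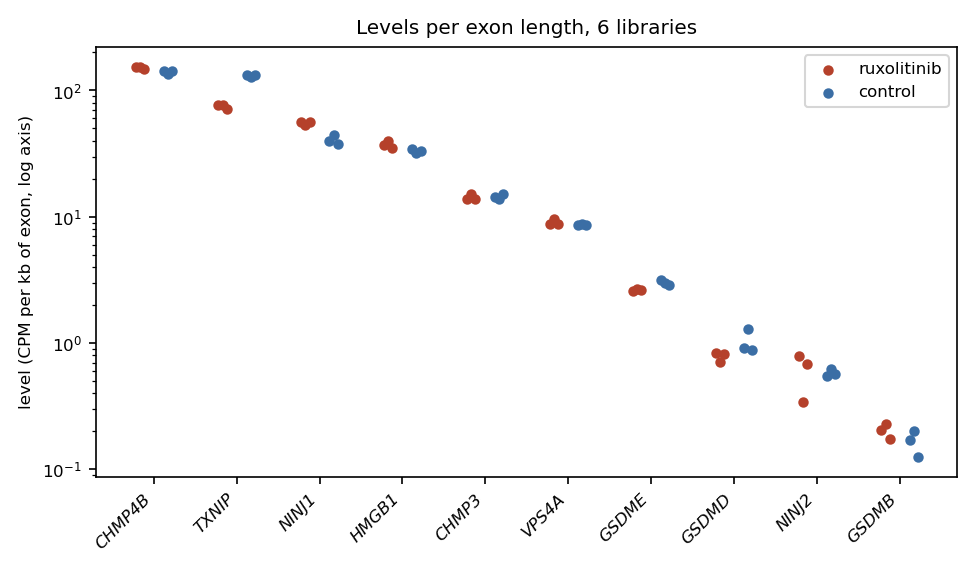
Level of each of the 10 genes per kb of annotated exon (log axis) in the 3 ruxolitinib libraries (red, left of each pair) and the 3 control libraries (blue, right of each pair), ordered by the control mean. CHMP4B stands highest at 136 to 155 CPM per kb over both groups, and GSDMB lowest at 0.125 to 0.227.

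The genes whose levels ran most alike were found by the smallest distance between centred log2 CPM profiles over the 6 libraries, among 7691 genes with a mean of at least 10 CPM. The 6 points share 2 groups, so likeness mainly reflects a similar group difference. For TXNIP these were EMP1, FCAR and NRIP3, at distances of 0.052, 0.081 and 0.083 (log2) and with log2 fold changes of -0.81, -0.79 and -0.79. For NINJ1 they were ANKRD54, RRP8 and AUP1, at distances of 0.045, 0.090 and 0.101 and with log2 fold changes of 0.42, 0.39 and 0.46. The closest genes to GSDME were RNASEH2C, DUSP14 and OTUB1 (distances 0.038, 0.043 and 0.051), and those closest to HMGB1 were SNRPG, GSTO1 and RPL41 (distances 0.030, 0.032 and 0.032), of which RPL41 passed the test (adjusted p = 0.0359). The call of RPL41 was lost in 9 of 17 alternatives, among them the block (0.117) and each single library left out other than ruxolitinib replicate 3, while SNRPG and GSTO1 passed with upper-quartile scaling (0.0362 and 0.0351) and without ruxolitinib replicate 3 (0.0244 and 0.0232).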

How the data were processed

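Poly-A RNA was selected and sequenced, per the labels' protocols. The authors deposited raw read counts per gene in 1 table, on genome build hg38 per the submitters' processing notes. The sources used here do not give the aligner, the counter, the annotation release or the strand setting. The table's columns named without a sign were matched to the sample titles with a plus sign. Counts were scaled by TMM, filtered by filterByExpr (minimum count 10, minimum total 15) and tested with edgeR 4.0.16 in R 4.3.3 (glmQLFit and glmQLFTest, robust) over all 14051 genes kept, without the batch as a term. Levels are CPM over TMM-scaled totals, each SE is the size of the log2 fold change divided by the square root of F, and log2 CPM profiles used a prior count of 2. Coordinates and exon lengths came from GENCODE 29 on GRCh38, in which 58340 row identifiers were found.

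The labels give same-numbered libraries a shared batch, and on that ground the numbers pair them, although the correlation of their deviations from the group means was -0.02 for batch 1, -0.19 for batch 2 and -0.10 for batch 3, taken over genes. Alternatives were the block, other scalings and filters, DESeq2 1.42.0, limma-voom (limma 3.58.1) and leaving out each library or batch. The genes and lists were chosen with earlier results of these data known. Named genes were the 10 genes, the 4 of lowest adjusted p in each list (all, where fewer were tested) and the 3 most alike profiles. Others were added once their values had been seen. They were IST1, ANXA5, ANXA6, DYSF, MLX, MLXIP, GZMA, CXCL12, TRAC, NKG7, LAMTOR3, LAMTOR4, LAMTOR5, the ZDHHC genes and the genes carrying the carbohydrate response element. Some genes that this rule or a marker list would name are not reported here. The test was also run on simulated counts with 200 changed genes and no batch effect, which is not a check of the calls above.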

Additional observations from a re-analysis of the deposited data

How the results depend on the processing

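With 17 alternatives for each of the 10 genes, NINJ1 and TXNIP kept their calls throughout, and GSDME and HMGB1 kept theirs in 3 and 6. NINJ2 and CHMP3, which did not pass in any setting, changed sign. NINJ2 had log2 fold changes of -0.028 by limma-voom, -0.23 without batch 1 and -0.051 without batch 3, and between -0.19 (without ruxolitinib replicate 1) and 0.34 with 1 library left out, including -0.04 without ruxolitinib replicate 3. CHMP3 had 0.021 with upper-quartile factors, 0.0034 without batch 1 and 0.047 without batch 3, and between -0.058 and 0.044 (without control replicate 3) with 1 library left out, including 0.015 without ruxolitinib replicate 1 and 0.0043 without ruxolitinib replicate 3. The cause was not tested. Of 798 results for 47 other named genes, 672 kept their side of the threshold, 103 lost and 12 gained the call, and 11 changed sign, all for genes that did not pass. MLX had 0.0081 with upper-quartile factors. MLXIP had 0.010 with upper-quartile factors and 0.20 without batch 2, and between -0.12 and 0.088 (without control replicate 2) with 1 library left out, including 0.085 without ruxolitinib replicate 2. ZDHHC5 had 0.0011 with median-ratio factors and by DESeq2, 0.025 with upper-quartile factors and 0.0023 without batch 3, and between -0.034 and 0.034 (without control replicate 3) with 1 library left out, including 0.020 without ruxolitinib replicate 2.

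Over all genes, 4175 passed in the main comparison, and 2941 to 4266 with 1 library left out. Without batch 1, 2 or 3 the counts were 1983, 5034 and 2914. The block gave 2915, DESeq2 3288 and limma-voom 4084. Among the 10 genes, 2 passed with the replicate block, by limma-voom and without batch 1 or 3, and 2 to 3 with 1 library left out. The ESCRT list had 2 with the block, 1 without batch 1, 8 without batch 2 and 2 to 5 with 1 library left out. The repair list had 4 without batch 1 and 5 to 9 with 1 library left out. The proteases had 1 by DESeq2 and without batch 1 or 3, and 1 to 4 with 1 library left out. The regulators of gasdermin D had 2 with the block, 3 by DESeq2, 1 without batch 1 or 3, and 2 to 6 with 1 library left out. The TXNIP relatives had 3 without batch 1 and 5 to 6 with 1 library left out, and the HMGB list 3 to 5. The list of other gasdermins had 0 with a minimum of 1 CPM in 3 libraries, since PJVK was then not tested, and 1 with any library left out. Leaving out a batch leaves 2 libraries per group. Depth limits GSDMB, NINJ2 and PJVK, which had at most 32 counts in a library.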
